A study of Mus musculus with 6 samples.

Results

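Genes of histone H3 lysine 36 (H3K36) methylation and of the MLL-menin complex were described in 32D cells with and without the Nup98::Nsd1 fusion gene. The members were Nsd1, Nsd2, Nsd3, Setd2, Ash1l, Kmt2a, Men1, Psip1, Dot1l and Kdm2a, and every probe set annotated to one of these symbols alone was taken. This gave 33 probe sets of 9 of the 10 genes, among 18193 genes with a symbol of their own on the array. Ash1l was listed for no probe set in the annotation used and was not analysed here.

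32D is a mouse myeloid line that needs interleukin-3, derived per the labels from the bone marrow of C3H/HeJ mice infected with Friend leukemia virus. The mock group was 3 samples of cells transduced with the MSCVpuro retroviral vector, and the Nup98::Nsd1 group 3 samples of cells transduced with the fusion. RNA of each sample was read on 1 Affymetrix GeneChip Mouse Genome 430 2.0 array, where probe sets stand for genes and each gives a MAS5 signal on a linear scale and a call of Present, Marginal or Absent. The design text names the function of NUP98::NSD1 in acute myeloid leukaemia as the question. The sources used here do not say whether the cells were clones, or what drives the fusion beyond the vector's name.

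Methylation of H3K36 is laid down in gene bodies and between genes. The NSD family and Ash1l add the lower methylation states, Setd2 adds the highest state in step with RNA polymerase II, and Kdm2a removes the lower states. Kmt2a, also known as MLL1, methylates histone H3 lysine 4 at promoters, is tethered to chromatin through menin (Men1) and Psip1 (LEDGF), and maintains Hox and Meis1 expression in blood progenitors and leukaemia. Psip1 itself reads methylated H3K36, and Dot1l methylates H3 lysine 79 at many of the same genes. The fusion joins the N-terminal part of the nucleoporin Nup98 to the C-terminal part of Nsd1, which carries the methyltransferase domain.

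The genes of the MLL-menin complex moved in opposite directions: Kmt2a rose in Nup98::Nsd1 cells, while Men1 and Psip1 fell. Of the H3K36 enzymes, Nsd3, Kdm2a and Setd2 rose, Nsd2 fell at 1 of its 4 tested probe sets, and Nsd1 was called Absent throughout. The rise of Setd2 passed the threshold with the signals as deposited, but under none of 4 other scalings of the arrays. Dot1l rose. Testing required a Present call throughout 1 group or the other, which 20 of the 33 probe sets had, in 8 genes. In limma, with Benjamini-Hochberg adjustment over all 20494 tested probe sets and a threshold of 0.05, 11 of the 20 rose and 5 fell. Over all tested probe sets 69.9% were called, 42.3% higher and 27.6% lower. Most tested probe sets were thus called, and a call alone does not set these genes apart. The median log2 fold change was 0.25 over the member probe sets and 0.15 over all tested probe sets.

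Counted by gene, with the brightest tested probe set standing for each, 5 of 8 member genes rose and 2 fell, against 42.9% and 29.5% of the 9641 tested genes, 72.3% in all. The 3 arrays of a group did not overlap with the other 3 at 17 of the 20 probe sets, against 73.2% of all tested probe sets. The calls depended on how arrays were scaled to each other. Under 5 scalings, namely the signals as deposited, quantile normalization, centring on the 75th percentile, centring on the median and scaling to the hybridization controls, the median log2 fold change of all tested probe sets was 0.15, -0.0091, -0.045, -0.018 and -0.18. Of the 20 member probe sets, 6 were called higher under all of them, in Kmt2a, Kdm2a and Nsd3, and 5 lower under all of them, in Men1, Psip1 and Nsd2. The share of calls that were higher went from 68.8% of member calls as deposited to 42.9% with hybridization control scaling, and from 60.5% to 34.5% among all tested probe sets.

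**Figure D1:**
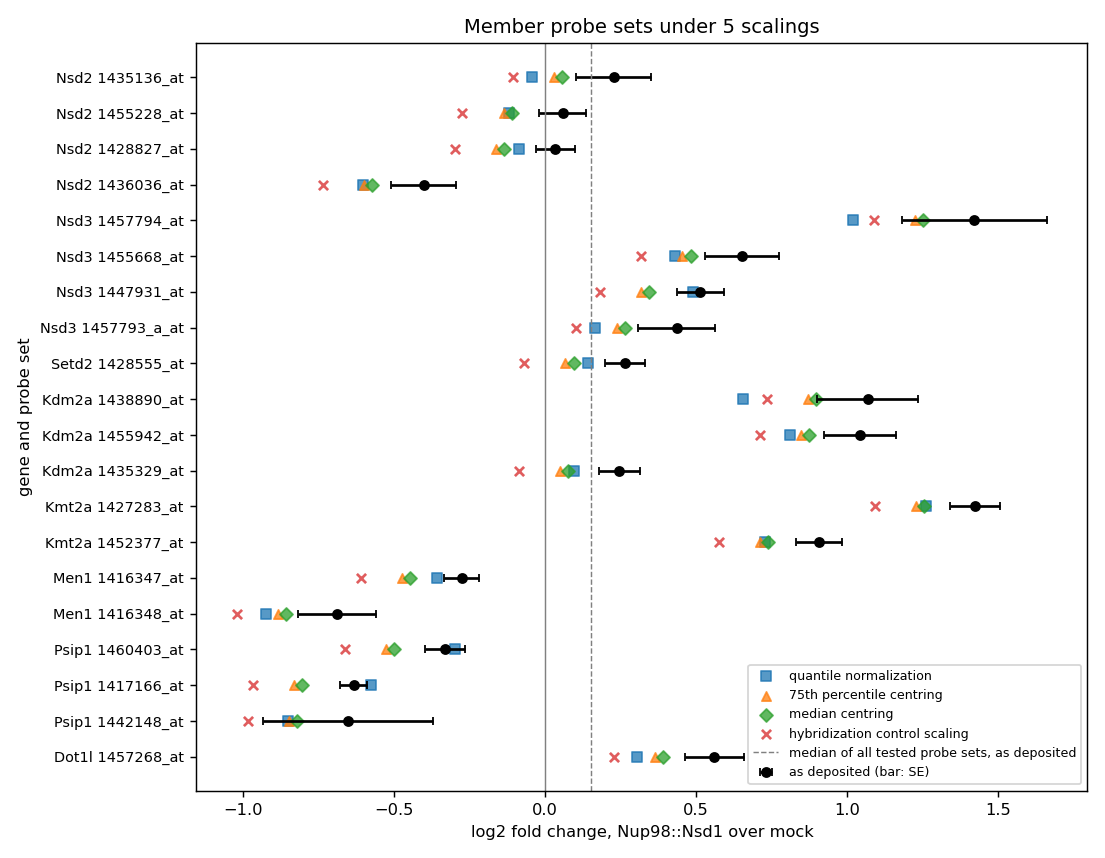
Log2 fold change of Nup98::Nsd1 over mock (x axis) for each tested probe set (y axis, gene and probe set), as deposited with its SE in black and under 4 other scalings as coloured symbols; the dashed line is the median of all tested probe sets, 0.15. Both probe sets of Kmt2a lie above 0 and both of Men1 and all 3 of Psip1 below 0 under each scaling. Setd2, the brightest Kdm2a probe set and the Nsd2 probe sets 1428827_at, 1435136_at and 1455228_at cross 0.

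The sequences upstream of Kmt2a and Men1 are shown because these partners in a complex moved apart, a choice made after their values were seen. Both Kmt2a and Kdm2a proteins bind unmethylated CpG dinucleotides through a CXXC zinc finger, so CpG content was counted. RefSeq sequence of build GRCm38.p6 was held for the promoters of 4 members, and the bases upstream of all annotated transcripts of the gene are printed, with CpG dinucleotides in capitals. Kmt2a lies on the minus strand, and its 187 bases are chr9:44881353-44881539, which the non-coding gene Gm39326 also spans. Men1 lies on the plus strand, and its 250 bases are chr19:6334729-6334978, which no other gene in the table overlaps.
Kmt2a: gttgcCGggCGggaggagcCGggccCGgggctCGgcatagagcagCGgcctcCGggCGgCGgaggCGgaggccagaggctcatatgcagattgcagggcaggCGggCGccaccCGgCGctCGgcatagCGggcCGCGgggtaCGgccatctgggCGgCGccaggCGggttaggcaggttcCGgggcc
Men1: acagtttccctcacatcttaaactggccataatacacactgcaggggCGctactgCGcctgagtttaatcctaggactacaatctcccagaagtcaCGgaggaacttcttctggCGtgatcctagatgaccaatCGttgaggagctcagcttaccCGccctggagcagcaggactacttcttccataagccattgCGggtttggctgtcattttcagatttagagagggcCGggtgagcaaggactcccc
The Kmt2a stretch holds 23 CpG dinucleotides and the Men1 stretch 8. Over whole windows of 300 bases, from 250 before to 50 after a start, Kmt2a had 36, Setd2 38, Dot1l 49 and Men1 11, against a median of 7 in 32851 windows. The GC content of these windows was 75.7% for Kmt2a, 77.3% for Setd2, 76.3% for Dot1l and 53.3% for Men1. Of 3 motifs searched on both strands, GGGCGG (35.7% of all windows) occurred in all 4 member windows, 5 times in Kmt2a, 7 in Setd2, 2 in Dot1l and 1 time in Men1. CCAAT (37.4% of windows) occurred, among the 4, in that of Men1 alone, and CCGGAAG (8.86%) in that of Dot1l alone. For Men1, which has 3 windows in the table, the one farthest upstream was used. A match is a description of letters, not a binding site.

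Kmt2a, the H3K4 methyltransferase of the complex, was the member with the smallest adjusted p. Its brighter probe set, 1427283_at, gave signals of 322, 346 and 375 on the mock arrays and 882, 948 and 963 on the Nup98::Nsd1 arrays. The groups lay far apart, and every array was called Present. The signal went from 348 ± 26.5 to 931 ± 43.2 (mean ± SD, n = 3 each), a 2.68-fold rise (limma log2 fold change 1.42 with SE 0.083 and adjusted p = 3.89e-08). That change exceeded those of 94.1% of all tested probe sets.

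A second Kmt2a probe set, 1452377_at, annotated to the same cDNA accession, gave 382, 373 and 383 in mock cells and 734, 723 and 676 in Nup98::Nsd1 cells. It rose 1.87-fold, from 379 ± 5.37 to 711 ± 30.8 (n = 3 each, limma adjusted p = 8.23e-07). Both probe sets thus rose, by different amounts: the second lay 0.52 below the first on the log2 scale (SE 0.102), a difference that passed limma's test of all pairs of probe sets of a gene (adjusted p = 0.00887). Under the other scalings the log2 fold change was 1.09 to 1.26 at the first probe set and 0.57 to 0.74 at the second, and both stayed past the threshold.

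Men1 encodes menin, the scaffold that holds the N terminus of Kmt2a. Its probe set 1416347_at gave 1072, 1141 and 1154 in mock cells and 953, 918 and 909 in Nup98::Nsd1 cells. All 3 Nup98::Nsd1 arrays lay under all 3 mock arrays, by a margin that was small beside the level. The signal fell from 1123 ± 44.2 to 927 ± 22.9, or 1.21-fold lower (n = 3 each, limma log2 fold change -0.28 with SE 0.058 and adjusted p = 0.00124).

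A second Men1 probe set from the same accession, 1416348_at, gave 537, 496 and 441 against 275, 369 and 277. It was 1.61-fold lower, at 491 ± 48.5 and 307 ± 54.0 (n = 3 each, limma log2 fold change -0.69, adjusted p = 0.000533), and its groups did not overlap either. The gap between both Men1 probe sets, -0.41, did not pass the test of pairs (limma adjusted p = 0.0831, n = 3 arrays a group). Another, 1443826_x_at, was called Absent on all 6 arrays at 141 to 233 and was not tested. Both tested probe sets were called lower under each of the 5 scalings, from -0.28 to -0.61 and from -0.69 to -1.02 on the log2 scale.

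Psip1 encodes LEDGF, a chromatin reader with a PWWP domain that binds the Kmt2a-menin pair. Its brightest probe set, 1417166_at, gave 2906, 3012 and 2972 in mock cells and 1940.0, 1857 and 1932 in Nup98::Nsd1 cells. The replicates of each group were tight and the groups clearly apart. The signal fell from 2963 ± 53.2 to 1909 ± 45.9, 1.55-fold lower (n = 3 each, limma log2 fold change -0.63 with SE 0.044 and adjusted p = 1.72e-07).

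The Psip1 probe set 1460403_at gave 2226, 2593 and 2171 against 1902, 1868 and 1769, again without overlap. It was 1.26-fold lower (2330.1 ± 229.7 to 1846 ± 69.0, n = 3 each, limma adjusted p = 0.000893). Its log2 fold change was 0.30 above that of the brightest probe set, and this difference passed the test of pairs (limma adjusted p = 0.0417, n = 3 arrays a group). The remaining one, 1442148_at, gave 568, 506 and 753 against 277, 684 and 294. One Nup98::Nsd1 array, replicate 2, lay among the mock arrays, and the log2 fold change of -0.65 did not pass (limma adjusted p = 0.0572, n = 3 a group). Without that array it was -1.07 (limma adjusted p = 0.000134), and it also passed under the 4 other scalings (-0.82 to -0.98). The sources used here do not say which Psip1 isoforms the probe sets read.

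The opposite movement of Kmt2a and its partners was also read as a difference within each array, in which a scaling factor cancels, a measure chosen after the values were seen and given with no test. The log2 change of Kmt2a 1427283_at exceeded that of Men1 1416347_at by 1.70 and that of Psip1 1417166_at by 2.06. In both cases each Nup98::Nsd1 array was above each mock array in this within-array difference, by at least 1.51 and 1.85.

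**Figure D2:**
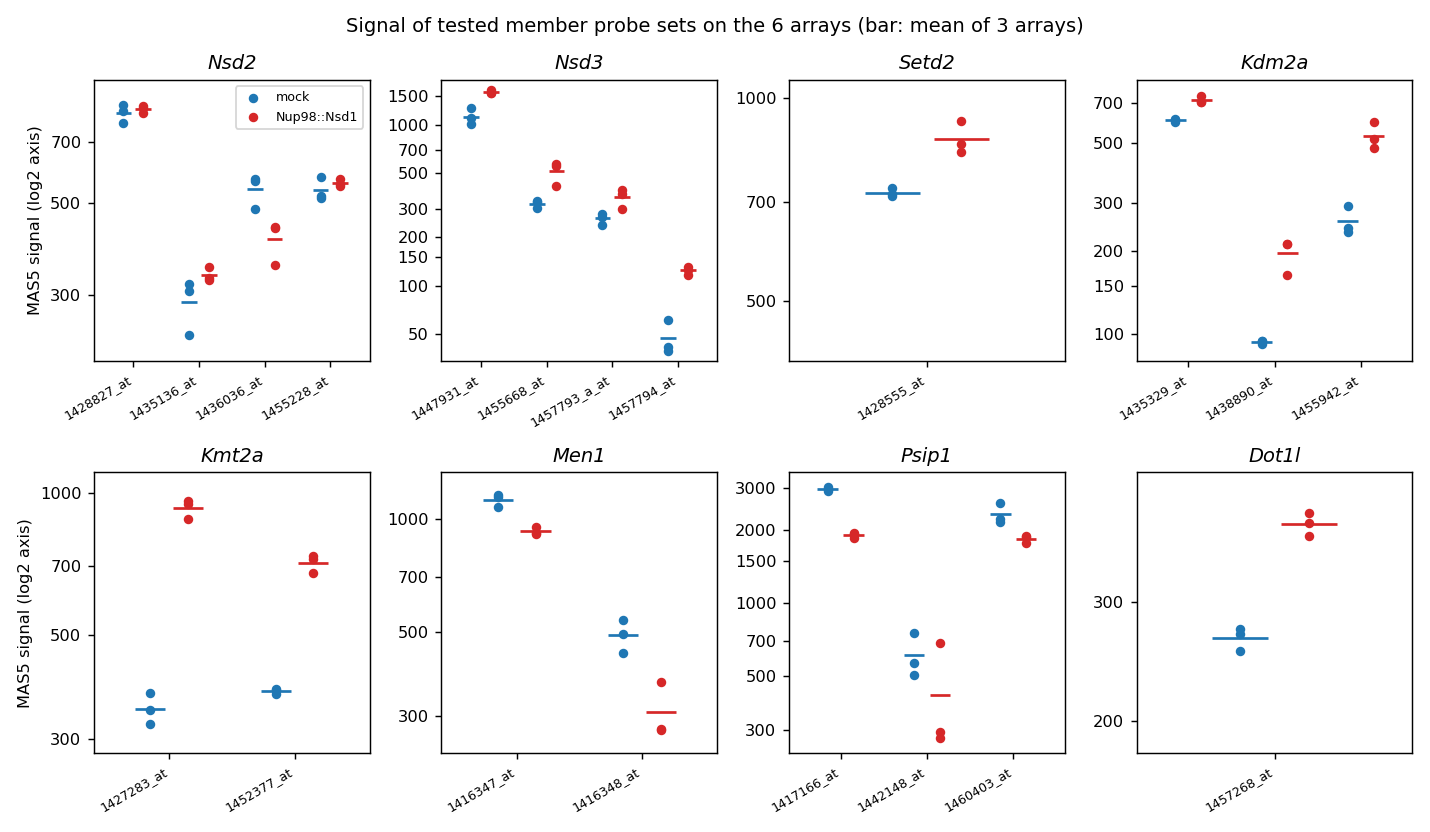
MAS5 signal (y axis, log2-spaced) of every tested member probe set (x axis) on the 3 mock arrays (blue) and 3 Nup98::Nsd1 arrays (red), with a bar at each mean; the range of the y axis differs between panels. Kmt2a, Nsd3, Setd2, Kdm2a and Dot1l are higher on the Nup98::Nsd1 arrays, Men1 lower, and Psip1 lower except for 1 array at 1442148_at.

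Dot1l, the H3 lysine 79 methyltransferase, had a tested and an untested probe set. The tested one, 1457268_at, gave 269, 273 and 253 in mock cells and 405, 393 and 375 in Nup98::Nsd1 cells, and the groups did not overlap. It rose 1.47-fold (265 ± 10.4 to 391 ± 15.3, n = 3 each, limma log2 fold change 0.56 with SE 0.098 and adjusted p = 0.000305). With hybridization control scaling the log2 fold change was 0.23 and did not pass (limma adjusted p = 0.118, n = 3 a group). The other, 1439488_at, was Absent on each mock array at 223, 209 and 279 and Present on 2 Nup98::Nsd1 arrays at 296 to 359. It too was higher on every Nup98::Nsd1 array.

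Nsd1 is the fusion partner and gave no level. Its 4 probe sets were called Absent in all 24 readings, at signals of 0.357 to 41.4 on the mock and 1.18 to 44.3 on the Nup98::Nsd1 arrays. The most variable, 1435088_at, gave 26.7, 10.5 and 41.4 in mock and 1.68, 1.18 and 44.3 in Nup98::Nsd1 cells, so that the spread within a group exceeded any difference between groups. The sources used here do not say which parts of the Nsd1 transcript these probe sets read, or whether the transduced fusion holds them. These readings therefore do not check the labels, and an Absent call does not show that the transcript was absent.

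Nsd2, the paralog that adds the lower H3K36 states and is known as a myeloma oncogene, did not pass the test at 3 of its 4 tested probe sets. Its brightest probe set, 1428827_at, gave 830.2, 775 and 857 in mock cells and 841, 821 and 855 in Nup98::Nsd1 cells. The groups overlapped (821 ± 41.8 and 839 ± 16.9, n = 3 each, limma log2 fold change 0.03 with SE 0.065 and adjusted p = 0.658). Of the others, 1455228_at at 0.06 and 1435136_at at 0.23, also missed the threshold (limma adjusted p = 0.523 and 0.123, n = 3 a group). The direction and the calls of these 3 depended on scaling: with hybridization control scaling they stood at -0.30, -0.27 and -0.11, and 1428827_at and 1455228_at were called lower (limma adjusted p = 0.00931 and 0.0247, n = 3 a group). Centring on the 75th percentile also called 1428827_at lower, at -0.16 (limma adjusted p = 0.0444, n = 3 a group).

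The fourth, 1436036_at, gave 484, 562 and 569 against 354, 434 and 437 and was 1.32-fold lower (538 ± 47.2 to 408 ± 47.3, n = 3 each, limma log2 fold change -0.40, adjusted p = 0.00553). It stayed lower under each scaling, down to -0.73. Its change differed from that of the brightest Nsd2 probe set by -0.44 (limma test of pairs, adjusted p = 0.0343, n = 3 arrays a group). The last Nsd2 probe set, 1443741_x_at, was Present on 2 arrays of each group, at 39.1 to 81.6, and was not tested.

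Nsd3, another NSD methyltransferase, which also has a short isoform without the catalytic domain, rose at each of its 4 tested probe sets. The brightest, 1447931_at, gave 1266, 1092 and 1009 in mock cells and 1574, 1648 and 1567 in Nup98::Nsd1 cells. It rose 1.43-fold without overlap (1123 ± 131 to 1596 ± 44.8, n = 3 each, limma log2 fold change 0.51 with SE 0.077 and adjusted p = 9.04e-05). Of the others, 1455668_at gave 304, 333 and 335 against 417, 552 and 569, a rise of 1.57-fold (limma adjusted p = 0.000529, n = 3 a group). The groups were again apart.

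Of the Nsd3 probe sets 1457794_at moved most and gave 39.5, 41.4 and 61.4 against 125, 117 and 131, a 2.68-fold rise (limma log2 fold change 1.42, adjusted p = 0.000245, n = 3 a group). This exceeded the change of the brightest by 0.91 (limma test of pairs, adjusted p = 0.0245, n = 3 arrays a group). The probe set 1457793_a_at, annotated to the same accession, rose 1.35-fold (limma adjusted p = 0.00911, n = 3 a group), and it passed under none of the 4 other scalings. Scaled to the hybridization controls, the brightest stood at 0.18 and did not pass (limma adjusted p = 0.135, n = 3 a group), while 1455668_at and 1457794_at did, at 0.32 and 1.09. The untested 1442085_at (92.1 to 111 in mock, 128 to 186 in Nup98::Nsd1 cells) was Absent on every array, and 1459907_a_at, Present on 1 mock array, was level at 349 ± 37.4 and 348 ± 24.7 (n = 3 each).

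Setd2, which places the highest H3K36 methylation state on transcribed genes, had a single probe set, 1428555_at. It gave 717, 721 and 734 in mock cells and 854, 832 and 924 in Nup98::Nsd1 cells, every Nup98::Nsd1 array above every mock array. The rise was 1.20-fold (724 ± 9.17 to 869.7 ± 48.1, n = 3 each, limma log2 fold change 0.26 with SE 0.066 and adjusted p = 0.00371). This lay near the middle of all tested probe sets, with 56.9% of them changing less or falling, and it did not pass under any of the 4 other scalings (0.14 with quantile normalization, -0.07 with hybridization control scaling).

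Kdm2a, the demethylase of the lower H3K36 states that binds CpG islands, rose at all 3 of its tested probe sets. The brightest, 1435329_at, gave 595, 606 and 615 against 741, 707 and 705, a rise of 1.19-fold (605 ± 10.1 to 718 ± 19.8, n = 3 each, limma adjusted p = 0.00611). The groups were apart, but this change also did not pass under the 4 other scalings and stood at -0.09 with hybridization control scaling. The other pair rose more. At 1455942_at the signals were 236, 244 and 295 against 518, 599 and 481, a 2.06-fold rise (limma log2 fold change 1.04, adjusted p = 1.03e-05, n = 3 a group).

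At 1438890_at they were 91.6, 93.7 and 94.3 against 213, 213 and 164, a 2.10-fold rise (limma log2 fold change 1.07, adjusted p = 0.000142, n = 3 a group). Both were called higher under each scaling and exceeded the brightest probe set by 0.80 and 0.82 on the log2 scale (limma test of pairs, adjusted p = 0.00396 and 0.00275, n = 3 arrays a group). The full-length Kdm2a transcript and a shorter form without the demethylase domain are known, and the sources used here do not say which of them each probe set reads. The 4 untested Kdm2a probe sets stayed between 19.5 and 87.9.

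Probe sets of one gene thus often differed in the size of the change. Of 12 pairs of a tested member probe set with the brightest of its gene, 6 passed the test of pairs, against 43.6% of the 8144 pairs of all genes. They lay in Kdm2a, Kmt2a, Nsd2, Nsd3 and Psip1. Leaving out 1 array brought the count to 3 to 5, with 3 when Nup98::Nsd1 replicate 1 or replicate 3 was left out. A log2 rise of at least 1 was seen at 4 of the 20 member probe sets, in Kmt2a, Nsd3 and Kdm2a, against 12.8% of all tested probe sets.

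**Figure D3:**
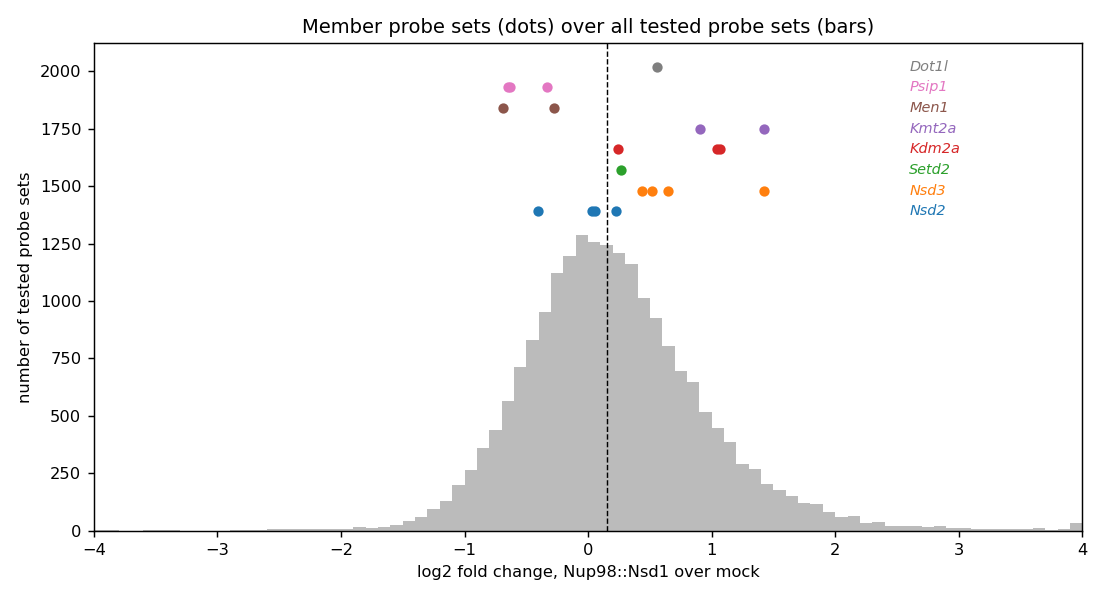
Number of tested probe sets (y axis, bars) by log2 fold change of Nup98::Nsd1 over mock (x axis, bins of 0.1, with values beyond -4 or 4 in the end bins), with a dot for each member probe set at a height that only separates genes, and a dashed line at the median of 0.15. The Kmt2a dot at 1.42 lies above 94.1% of tested probe sets and the lower Men1 dot at -0.69 above 8.62%.

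The genes most like a member in their pattern were sought for Kmt2a and Psip1, which had the smallest adjusted p, among 9633 other genes by the distance over the 6 arrays of log2 signals centred on the mock mean. Nearest to Kmt2a were Creb3l2, Sft2d2 and Pck2, at distances of 0.152, 0.156 and 0.160 and log2 fold changes of 1.47, 1.47 and 1.40. Nearest to Psip1 were Mfsd14b, Tmx4 and Wdr61, at distances of 0.0112, 0.0422 and 0.0444 and log2 fold changes of -0.64, -0.63 and -0.62. As the groups differ in most tested genes, such a list holds genes that changed by a like amount.

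Other genes of these pathways were taken from lists. Of 17 MLL/COMPASS paralogs and shared subunits, all tested, 7 rose and 6 fell (median log2 fold change 0.0067, against 0.12 over all tested genes). Dpy30, a core subunit of all complexes of this family, was 1.96-fold lower (10112 ± 74.8 to 5158 ± 204, n = 3 each, limma adjusted p = 3.61e-09), and Paxip1, a subunit of the Kmt2c and Kmt2d complexes, 1.90-fold lower (limma adjusted p = 1.57e-06, n = 3 a group). The methyltransferase genes Kmt2c and Setd1b rose 1.75-fold and 1.51-fold (limma adjusted p = 1.85e-06 and 4.89e-05, n = 3 a group). Chosen after their values were seen, the other methyltransferases of the family were at log2 fold changes of 0.68 for Kmt2b, 0.57 for Setd1a and 0.24 for Kmt2d, each called higher like Kmt2a. Under hybridization control scaling Kmt2b, Kmt2c and Setd1b remained called, while Setd1a at 0.24 and Kmt2d at -0.10 did not pass, and the list counted 3 higher and 10 lower.

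Of 12 MLL-menin target genes, 6 were tested and all 6 rose (median log2 fold change 0.63), against 42.9% of all tested genes called higher. This list, like the others, was chosen with earlier results of these data known. Mecom, the EVI1 leukaemia gene, rose 2.37-fold (9331 ± 102 to 22089 ± 1107, n = 3 each, limma adjusted p = 1.03e-09), and Cdkn1b, the cell cycle inhibitor p27 that menin and Kmt2a maintain in endocrine cells, rose 2.33-fold (limma adjusted p = 2.19e-08, n = 3 a group). Jmjd1c and the Hox cofactor Meis1 rose 1.53-fold and 1.56-fold (limma adjusted p = 1.55e-06 and 0.00488, n = 3 a group). The Meis1 call was lost when arrays were scaled to the hybridization controls (log2 fold change 0.31, limma adjusted p = 0.137, n = 3 a group), and its log2 fold change was 0.21 with quantile normalization. With quantile normalization, 75th percentile centring and median centring, 4 of the 6 tested target genes were called higher in each. Scaled to the hybridization controls, 3 of them rose and 1 fell. Hoxa5, Hoxa7, Hoxa9, Hoxa10, Mef2c and Eya1 were not tested: Hoxa7, Hoxa9, Mef2c and Eya1 were Present on no array, Hoxa5 in 2 of 12 readings and Hoxa10 in 1 of 12.

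Of 12 Dot1l partners and super elongation complex genes, 4 rose and 3 fell (median 0.025). At their brightest tested probe sets the scaffolds Aff1 and Aff4 rose 1.46-fold and 1.52-fold and the cyclin gene Ccnt2 1.40-fold, while Eaf1 was 1.42-fold lower (limma adjusted p = 2.74e-06, 1.55e-06, 9.68e-05 and 2.43e-05, n = 3 a group). The other tested Aff1 probe sets had negative log2 fold changes and were not called, while that of Aff4 was called higher. The other tested Ccnt2 probe sets had positive log2 fold changes, but only some of them were called. Chosen after their values were seen, the acetyl-lysine readers Mllt1 (ENL) and Mllt3 (AF9), which recruit Dot1l and are frequent Kmt2a fusion partners, were both lower, Mllt3 at a log2 fold change of -0.88 (limma adjusted p = 0.00193, n = 3 a group). Mllt1 had signals of 219.7 ± 48.6 in mock and 87.8 ± 20.6 in Nup98::Nsd1 cells (n = 3 each), where no array was called Present. It was tested through its mock arrays alone, so its level in Nup98::Nsd1 cells is a bound and no size is given for its change. Under hybridization control scaling 2 genes of the list rose, Aff1 and Aff4, and 8 fell, while Ccnt2 at 0.15 did not pass (limma adjusted p = 0.176, n = 3 a group).

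Of 9 tested genes on a list of readers of methylated H3K36 and their relatives, 4 rose and 4 fell (median 0.11). Among those that rose was Phf1, named after its values were seen. It was Present on 2 mock and 3 Nup98::Nsd1 arrays, and so was tested through its Nup98::Nsd1 arrays alone. With a Present call required on all 6 arrays, 3 genes of the list rose and 4 fell. Morf4l2 is on the list as a relative of the reader Morf4l1, which had no probe set of its own. The mismatch repair gene Msh6 and the Polycomb accessory gene Mtf2 were 1.74-fold and 1.57-fold lower and Glyr1 1.20-fold lower, while Morf4l2 rose 1.26-fold (limma adjusted p = 2.29e-08, 2.81e-07, 0.000122 and 1.09e-05, n = 3 a group). Scaled to the hybridization controls, 0 genes of this list rose in limma, Morf4l2 standing at 0.00061, and 5 fell. Of 6 other H3K36 demethylases, 2 rose and 2 fell (median 0.021): Kdm4a rose 2.08-fold and Kdm4b 1.39-fold, while Kdm2b, the paralog of Kdm2a, was 1.36-fold and Riox1 1.25-fold lower (limma adjusted p = 1.41e-07, 0.0162, 8.44e-06 and 0.031, n = 3 a group). Scaled to the hybridization controls, 1 of them rose and 3 fell, and Kdm4b at 0.15 did not pass (limma adjusted p = 0.425, n = 3 a group). The Kdm4b call was lost without mock replicate 1 or Nup98::Nsd1 replicate 1 (limma adjusted p = 0.063 and 0.0693) and the Riox1 call without mock replicate 1 or 2 or Nup98::Nsd1 replicate 1 or 2 (0.061, 0.0916, 0.124 and 0.0692). Of 6 tested partners of transcription-coupled H3K36 methylation, 3 rose and 2 fell (median 0.42). Iws1, Supt6 and Supt5 rose by 0.75, 0.60 and 0.58 on the log2 scale (a second Iws1 probe set was called lower), and the histone chaperone gene Supt16 was 1.47-fold lower (limma adjusted p = 6.92e-07, 3.29e-05, 2.41e-06 and 2.46e-07, n = 3 a group).

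**Figure D4:**
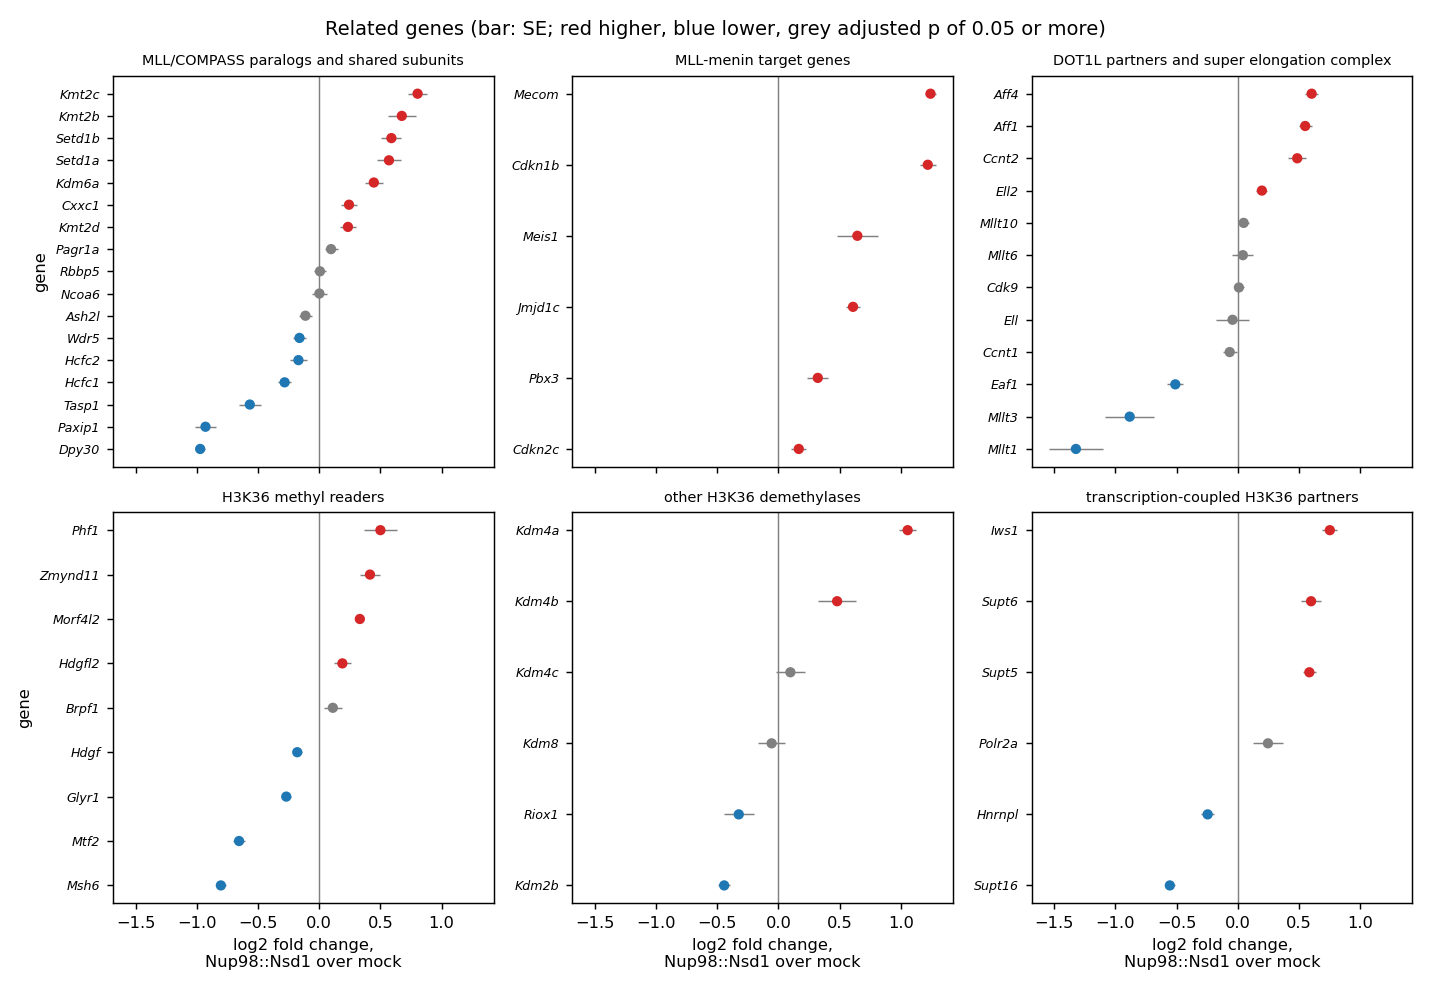
Log2 fold change of Nup98::Nsd1 over mock with its SE (x axis) for the tested genes (y axis) of 6 lists related to the members, each gene at its brightest tested probe set, coloured by call as deposited. The methyltransferases Kmt2b, Kmt2c, Kmt2d, Setd1a and Setd1b lie above 0, and all 6 tested MLL-menin target genes do.

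On the arrays as a whole, 45.0% to 45.8% of probe sets were Present in mock and 47.5% to 48.2% in Nup98::Nsd1 cells. The 3' to 5' signal ratio of Actb, which reflects RNA integrity and labelling, went from 1.18 ± 0.030 in mock to 1.47 ± 0.026 in Nup98::Nsd1 cells (n = 3 each). That of Gapdh moved less, from 0.76 ± 0.016 to 0.82 ± 0.024 (n = 3 each). Both ratios moved with the groups, and their part in the changes of the members was not tested. Of 10 myeloid progenitor markers 7 were Present on all 6 arrays, while Kit and Cd34 were Present on none, and the summed signal of the list ranged from 50996 to 53832 in mock and from 36775 to 37440 in Nup98::Nsd1 cells. Of the 8 tested 3 rose (Ptprc, Spi1 and, named after its values were seen, Csf2rb) and 3 fell, with a median log2 fold change of 0.063. Another tested probe set of Csf2rb was called lower. With hybridization control scaling 0 of the 8 rose in limma and 6 fell. Among those that fell as deposited were Mpo (mean signal 19095 to 5183) and Prtn3 (9202 to 4878). Elane, named after its values were seen, also fell but was Present on no Nup98::Nsd1 array. It was tested through its mock arrays alone, so its level in Nup98::Nsd1 cells is a bound. Of the megakaryocyte markers 3 of 5 were tested and all 3 rose (summed signal 3553 to 3688 in mock, 9318 to 9709 in Nup98::Nsd1 cells). The others were not tested, with Gp1bb Present on no array and Ppbp Present in 1 of 6 readings. Of the T and NK markers Nkg7 alone was tested and fell, at a summed signal of 4417 to 4682 in mock and 945 to 1048 in Nup98::Nsd1 cells, with Cd3e, Cd3g and Cd4 Present on no array. Of the erythroid markers 0 of 2 tested rose and 1 fell (476 to 551 and 371 to 401), with Alas2 Present on none. The gene that fell, Klf1, was Present on 3 mock arrays and 1 Nup98::Nsd1 array, so it was tested through its mock arrays alone. No B cell and no fibroblast marker was tested, at summed signals of 85.9 to 226 and 96.5 to 158, with Cd79a, Pax5, Col1a2, Dcn and Pdgfra Present on none. Fewer cells of a type and less RNA per cell cannot be told apart in such bulk samples, and the part of these markers in the changes of the members was not tested. No label says that the samples came from separate cultures, so p-values measure no more than the spread among these arrays, and that spread may be technical.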

How the data were processed

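The authors deposited, for each of 6 arrays, a MAS5 signal (an intensity on a linear scale, scaled per array), a detection p-value and a detection call, per the file headers and the submitters' processing notes. The sources used here give neither the MAS5 version nor its scaling target. The intensity values of the deposited series matrix differed from them by at most 0.0005%. Of 45037 probe sets that are not controls, 34945 had 1 gene symbol, 932 several and 9160 were not listed. For 34741 of those with 1 symbol the Entrez identifier was found in a RefSeq table (GRCm38.p6), and its symbol there was used. Signals under 1 were set to 1 and taken to log2. Probe sets with a Present call throughout either group were tested with limma 3.58.1 in R 4.3.3, with an intensity trend and Benjamini-Hochberg adjustment over 20494 probe sets. Pairs of probe sets of a gene were tested on their within-array log2 difference, with no trend. On simulated data of 20494 probe sets, limma called 24%, 56%, 90% and 98% of 50 probe sets each, changed by 0.25, 0.5, 1 and 2 in log2. Few probe sets were changed in that simulation, whereas 69.9% were called in the data. The adjustment therefore worked under unlike settings, and these shares need not hold for the data. The number of arrays limits the precision.

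The members and lists were chosen with earlier results of these data known. Named were all member probe sets and, in each list, up to 4 called genes with the smallest p. Genes nearest to a member in pattern and genes that were not tested were named too. Other tested genes of a list that are named are marked. Alternatives were a pseudocount of 16 or 64, other detection filters, 4 other scalings, the series matrix, no trend, array weights, a replicate block, gene means over probe sets and leaving out each array.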

Additional observations from a re-analysis of the deposited data

How the results depend on the processing

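With hybridization control scaling 6 member probe sets were higher and 8 lower, 12 listed genes of related pathways were higher and 29 lower, and 4754 of all tested probe sets were higher and 9035 lower; as deposited the counts were 11 and 5, 26 and 17, and 8678 and 5657. Member genes higher numbered 5 as deposited, 3 with quantile normalization, 75th percentile centring and median centring, and 1 with hybridization control scaling; those lower numbered 2, and 3 with 75th percentile centring and hybridization control scaling. Pairs of member probe sets that differed numbered 3 to 5 when 1 array was left out.

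Log2 fold changes that turned negative were those of Setd2 (-0.069) and Kdm2a 1435329_at (-0.086) with hybridization control scaling, Nsd2 1435136_at with quantile normalization (-0.043) and hybridization control scaling (-0.11), Nsd2 1428827_at with quantile normalization (-0.086), 75th percentile centring (-0.16), median centring (-0.14), hybridization control scaling (-0.30) and without mock replicate 2 (-0.0072, against up to 0.065 without another array), and Nsd2 1455228_at in the same 4 scalings (-0.12, -0.14, -0.11 and -0.27). The cause of these differences was not tested beyond the shift of all probe sets that a scaling brings.

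Of 360 comparisons of a member probe set with an alternative, 329 kept direction and side of the threshold and 13 turned direction. Of the rest, which kept direction, 12 lost the call and 6 gained it. Some that turned also crossed the threshold. With hybridization control scaling, for example, Setd2 lost its call and Nsd2 1428827_at gained one. Deviations from the group mean of arrays with the same replicate number correlated at -0.017, -0.011 and 0.021. These values show no pairing by number, but they cannot show that the samples were prepared separately. With the replicate block, 11 member probe sets were higher and 6 lower, Psip1 1442148_at being the one gained (limma adjusted p = 0.0443, n = 3 a group), and 8628 and 5629 of all probe sets; pairs that differed numbered 5.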
